A study of Mus musculus with 18 samples.

Results

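The lineage difference between CD8+ and CD4+ T cells that had infiltrated the same kind of tumor was measured by RNA sequencing of the 3 libraries labelled 155 Flox CD8 and the 3 labelled 155 Flox CD4, which are 6 of the 18 libraries of the study. Both groups came from B6 mice whose miR-155 gene was flanked by loxP sites (floxed) and that carried no Cre recombinase and received no antibody, so their T cells kept the gene. Each mouse had been injected subcutaneously in the flank with 1000000 B16f10-OVA cells, a melanoma line that carries ovalbumin, and tumors had grown for 12 days. Each library pools sorted cells of 2 to 3 tumors from separate mice. The age of the mice and the sorting gates are not given in the sources used here, and the labels do not say whether the CD8 and CD4 libraries of one number came from the same tumors. The other 12 libraries served for comparison: 3 of CD8 and 3 of CD4 cells from floxed mice with CD4cre, which deletes the gene in cells that express or once expressed CD4 (deficient), and 3 and 3 from such mice that also received checkpoint blockade with anti-PD-1/PD-L1 plus anti-CTLA-4 (treated).

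CD8 T cells recognise peptides on MHC class I and kill their targets with perforin and granzymes. CD4 T cells recognise peptides on MHC class II and act as helper cells or, when they express Foxp3, as regulatory T cells that restrain other T cells. The choice between the lineages is made in the thymus, where Runx3 silences Cd4 and the factor encoded by Zbtb7b holds the CD4 program. MiR-155 is a microRNA of activated lymphocytes that lowers target transcripts through its seed. The floxed allele holds the mature sequence below, printed from RefSeq (build GRCm38.p6, chr16:84714143-84714165, plus strand), with the seed, bases 2 to 8, in capitals:
mmu-miR-155-5p: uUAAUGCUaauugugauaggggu
Mature microRNAs were not counted here. The host transcript Mir155hg stood at 20.5, 19.2 and 9.06 CPM (counts per 1000000 counts, TMM scaled) in the CD8 libraries and at 4.87, 8.22 and 6.71 in the CD4 libraries. The groups did not overlap, but the difference of 1.30 ± 0.56 (log2, CD8 minus CD4, ± standard error, SE) missed the threshold, with an adjusted p of 0.0702 from the quasi-likelihood F test of edgeR, adjusted by the Benjamini-Hochberg method over all genes, the test behind every adjusted p below. In the deficient libraries Mir155hg was at 0 to 1.90 CPM.

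The labels held in the lineage genes, with Cd8a and Cd8b1 transcripts present in all 3 CD4 libraries and lowest in replicate 1. Cd8a, 1 chain of the CD8 co-receptor (GRCm38 chromosome 6, 71373427 to 71379173), stood at 1319, 1446 and 1143 CPM in the CD8 libraries and at 14.6, 149 and 142 in the CD4 libraries. Cd8b1, the other chain (chromosome 6, 71322788 to 71337494), stood at 572, 741 and 651 and 17.5, 82.8 and 96.4. CD4 replicate 1 was thus the lowest for both, and in CD4 replicates 2 and 3 Cd8a reached 11.5% and 10.9% of the CD8 mean, against 1.12% in replicate 1. In the deficient CD4 libraries Cd8a was at 0.259, 0.136 and 0.282 CPM. Cd8b1 was at 17.4, 8.15 and 6.77 CPM in those libraries, so they were not free of CD8 transcripts. Cd4 (chromosome 6, 124864692 to 124888221) stood at 3.13, 1.47 and 0 CPM in CD8 and 433, 469 and 233 in CD4 libraries, so no CD8 library reached 1% of the CD4 mean. Zbtb7b was at 28.03, 39.02 and 32.3 and 151, 155 and 144 CPM. The differences were 3.68 ± 0.69 for Cd8a (adjusted p = 0.000952), 3.33 ± 0.52 for Cd8b1 (0.00018), -7.87 ± 0.48 for Cd4 (1.76e-08) and -2.17 ± 0.16 for Zbtb7b (2.85e-09). Runx3 passed the test (1.49 ± 0.50, adjusted p = 0.0292) through CD8 replicate 1: its CD8 values were 126, 22 and 30.9 CPM, its CD4 values 21.2, 21.9 and 20.6, and without that library the difference was 0.32 (adjusted p = 0.421). The call was also lost without any 1 of the 3 CD4 libraries, at an adjusted p of 0.0706 to 0.0838.

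**Figure D1:**
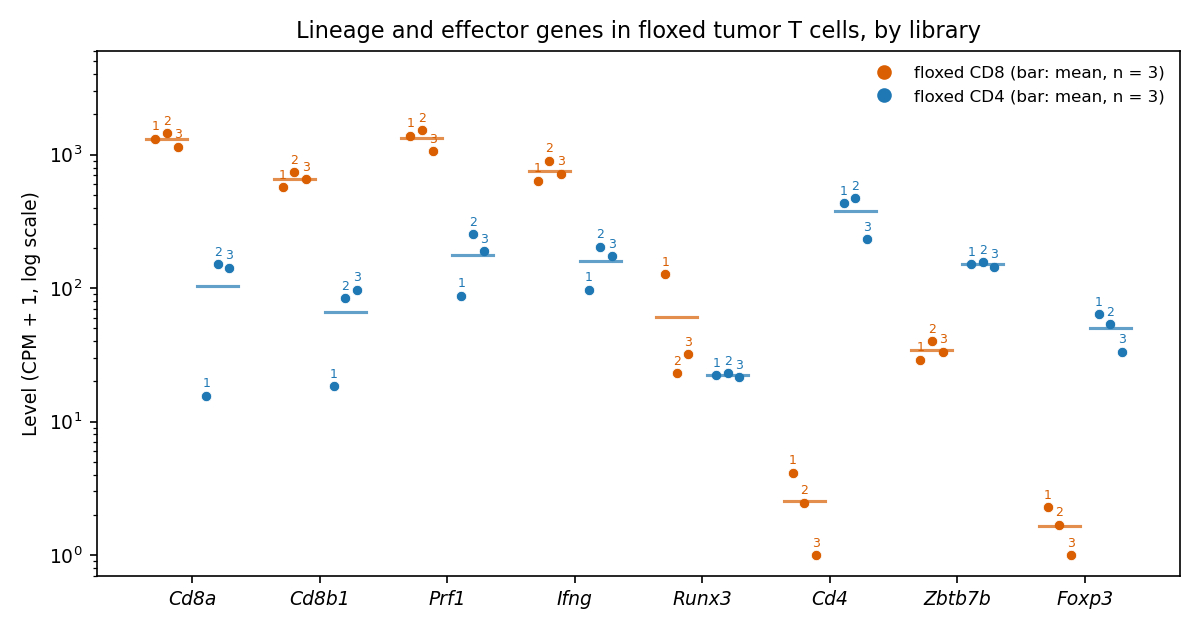
Level of 8 genes in each of the 6 libraries (y axis, CPM + 1 on a log scale; orange points are CD8 and blue points CD4 libraries, with the replicate number beside each point; the bar is the group mean). Cd8a and Prf1 are lowest in CD4 replicate 1, at 14.6 and 86.8 CPM, and the groups are apart for all 8 genes, by the least for Runx3.

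Library totals ran from 4465333 to 9791305 counts, so that a count of 3 corresponds to 0.306 to 0.672 CPM before TMM scaling. Libraries of 1 group differed by 0.742 to 0.975 (root mean square over the tested genes, log2) and libraries of different groups by 1.24 to 1.65. Of 14080 genes tested, 5506 (39.1%) passed an adjusted p of 0.05, of which 2662 (18.9% of all tested) had the higher level in CD8 and 2844 (20.2%) in CD4 cells. Among them, 1227 (8.71%) and 1746 (12.4%) differed at least 2-fold. The median over all tested genes was 0.04. In 2924 tested genes (20.8%) every CD8 library was above every CD4 library, and in 3115 (22.1%) the order was the reverse. Counts for gene groups below, and statements that the groups were apart or did not overlap, are read against these shares.

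RNA of other cells moved with the lineage. The 20 macrophage and monocyte markers, which include Lyz2 and complement genes, summed to 1019, 1136 and 2475 CPM in the CD8 libraries and to 17940, 13290 and 27830 in the CD4 libraries, and 18 of 20 were higher in CD4 (median -4.53). The 15 class II and dendritic cell markers summed to 386.3 to 461.2 CPM in CD8 and to 8037 to 18510 in CD4 libraries, with 13 higher in CD4. Natural killer cell markers summed to 300 to 381.9 and 668 to 1374 CPM, with 3 of 10 tested higher in CD8 and 4 in CD4, and melanoma markers to 189.9 to 234.6 and 195 to 741.3 CPM, highest in CD4 replicate 1. B and plasma cell markers summed to 74.9 to 81.75 CPM in CD8 and 241.6 to 266.8 in CD4 libraries and endothelial markers to 28.26 to 35.15 and 68.56 to 105.6 (2 of 4 and 2 of 3 tested higher in CD4), whereas gamma delta T cell markers were at 38.03 to 52.61 and 12.26 to 34.25 CPM (1 of 5 higher in CD8). Neutrophil markers summed to 1.24 to 1.99 CPM in CD8 and 38.3 to 52.66 in CD4 libraries (1 of 2 tested higher in CD4), mast cell markers to 7.82 to 29.74 and 2.35 to 6.17 (2 of 2 higher in CD8), fibroblast markers to 0.391 to 1.07 and 0.994 to 3.84 (0 of 4 called) and erythroid markers to 0 to 0.391 and 1.49 to 15.89 (2 of 3 higher in CD4). Among defining markers, the endothelial genes Emcn, Tek and Tie1 and the neutrophil genes Cxcr2, Elane, Mpo and Retnlg were at 0 in all 6 libraries. So were the mast cell genes Gata2, Mcpt4 and Ms4a2 and the fibroblast genes Pdgfra and Pdgfrb. Fcer1a was at 0 in the CD8 libraries, and Cpa3 and Mcpt8 in the CD4 libraries. Csf3r made up most of the neutrophil sum in CD4 (mean 42.4 of 44.89 CPM), and Kit is on both the mast cell and melanoma lists. Of the natural killer sum, Fcer1g gave a mean of 353.8 of 986.1 CPM in CD4 and 25.5 of 352.9 in CD8 libraries. Fcer1g was highest in CD4 replicate 3, as was the macrophage sum, whereas Cd160 of the same list was higher in CD8 (2.44). The part of macrophage RNA in the natural killer sum was not tested. No macrophage marker was at 0 in more than 1. In bulk samples, fewer cells of a type and less RNA per cell cannot be told apart. With the macrophage and melanoma levels as covariates, 203 genes were called higher in CD8 and 321 higher in CD4. Since the macrophage level separates the groups by itself, that fit leaves little of the lineage difference to compare, and its counts are given beside several gene groups. With CD4 replicate 1, the library lowest in CD8 transcripts, as the 1 library of its group, an alternative chosen after the data were seen, 1811 and 2121 genes were called, with the spread of that single library taken from the other groups, and Prf1 and Gzmb differed by 3.95 and 1.49.

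**Figure D2:**
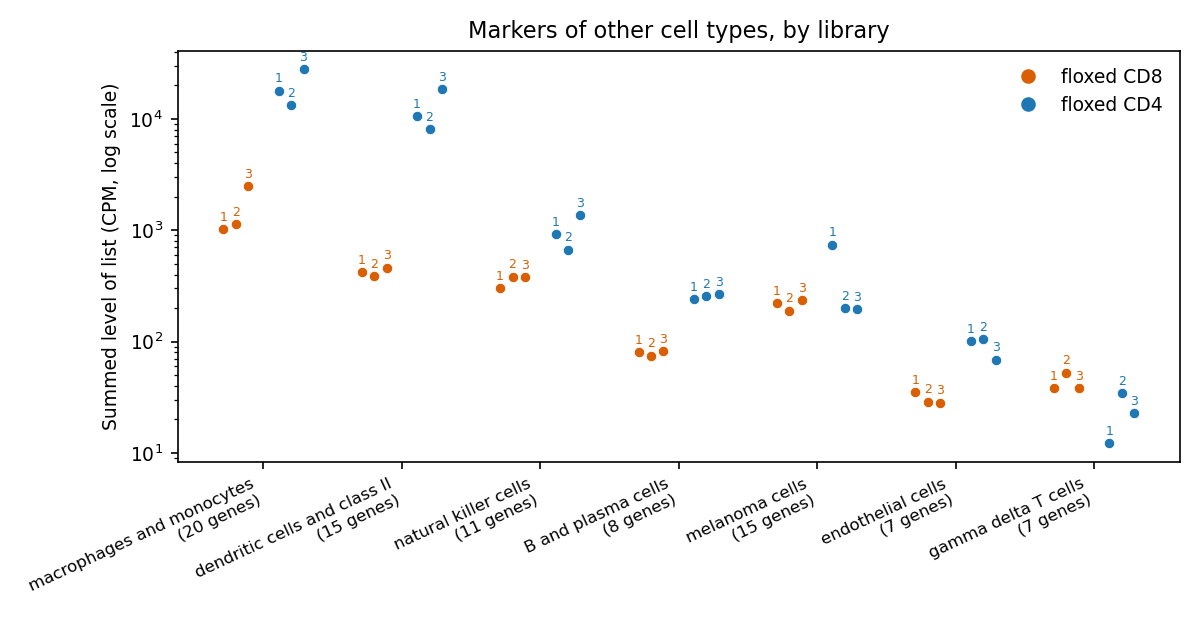
Summed level of the marker lists of other cell types in each library (y axis, CPM on a log scale; orange points are CD8 and blue points CD4 libraries, with replicate numbers). Macrophage and class II sums of the CD4 libraries all lie above those of the CD8 libraries, and the melanoma sum stands out in CD4 replicate 1 at 741.3 CPM.

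**Figure D3:**
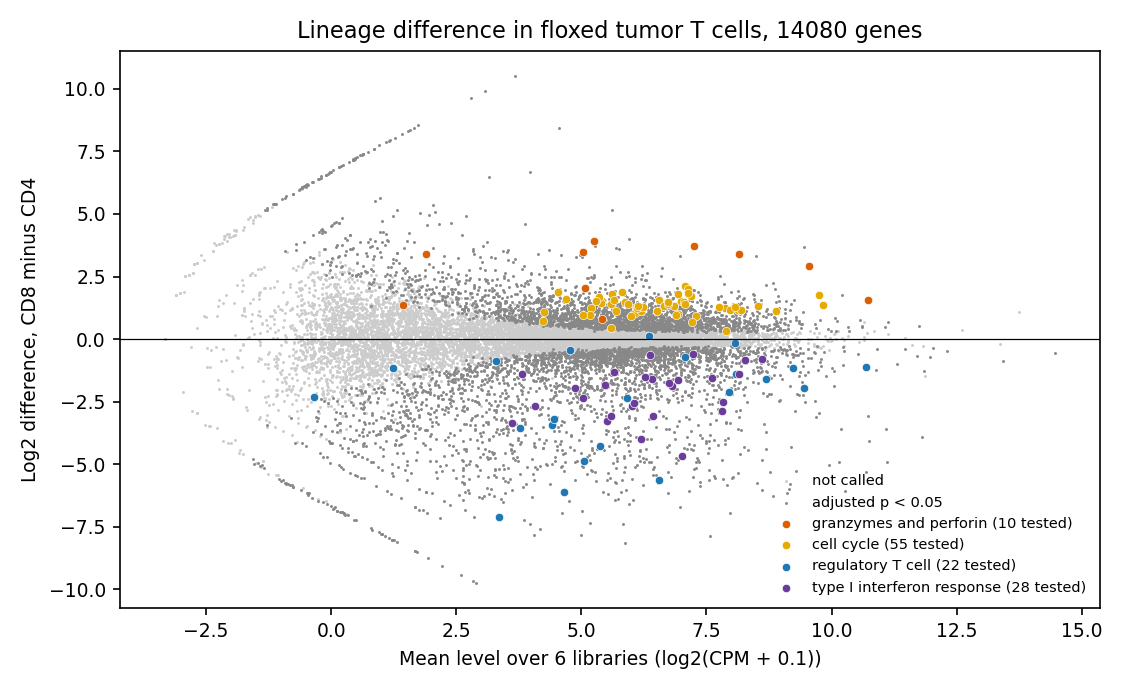
Log2 difference (CD8 minus CD4, y axis) against the mean level (x axis, log2 CPM over the 6 libraries) of the 14080 tested genes, with genes past an adjusted p of 0.05 in darker grey. Colored points are 4 sets of genes, with both cell cycle lists in 1 color: granzymes and perforin and the cell cycle genes lie above 0, the regulatory T cell and type I interferon lists mostly below.

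The killing machinery was higher in CD8 cells. Of 11 granzyme and perforin genes, 10 could be tested, 8 were higher in CD8 and none was higher in CD4 (median 3.16). Prf1, which encodes the pore-forming protein perforin, stood at 1383, 1520.2 and 1066 CPM in CD8 and 86.8, 253 and 188 in CD4 libraries (2.91 ± 0.45, adjusted p = 0.000154). Gzmb, the granzyme that cleaves caspases, was at 2593, 2755 and 2304 and 925, 871 and 768 CPM (1.58 ± 0.25, adjusted p = 0.000104), so CD4 libraries kept 30.1% to 36.3% of the CD8 mean. For Prf1 that share was 6.56% in CD4 replicate 1 and 19.1% and 14.2% in replicates 2 and 3. Gzmc stood at 601, 469 and 497 and 21.2, 82.3 and 43.5 CPM, Gzmf at 326, 273 and 252 and 5.71, 29.3 and 30.8, and Gzmk, a granzyme of memory-like effector cells, at 52.9, 50.1 and 59.5 and 12.8, 14.5 and 12.2. In every one of these genes the groups were apart, and for Prf1, Gzmc and Gzmf CD4 replicate 1 was the lowest library. The order of those 3 genes over the CD4 libraries follows that of Cd8a in that replicate 1 is lowest, whereas Gzmb and Gzmk levels did not follow it. Neither Gzma, which natural killer cells also express (0.79 ± 0.33, adjusted p = 0.0669), nor Gzmg (0.0576) passed the test. Gzmc to Gzmg are closely related neighbours on chromosome 14. Reads shared between such copies were not measured here, so their separate values are uncertain.

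Most promoters of this list share a short motif, shown because 8 of the 10 tested genes were higher in CD8. Gzma and Gzmg, which did not pass the test, hold the motif too. Of the 10 tested genes with a RefSeq promoter (250 bases before to 50 after the start), 9 (90%) held TGTGGT, the core of the sequence that RUNX proteins bind, on either strand, against 1580 of 10103 (15.6%) of all tested genes with a promoter. The windows of 30 bases below have the motif in capitals (ACCACA is its other strand) and read along the gene. They lie on GRCm38.p6 at chr14:56262351-56262380 (Gzmb), chr14:56234748-56234777 (Gzmc), chr14:56211523-56211552 (Gzmf), chr14:56132688-56132717 (Gzmd) and chr10:61297694-61297723 (Prf1), on the minus strand except Prf1.
Gzmb: tgtgggttctgcTGTGGTtacttcatgatt
Gzmc: tcaggaggtcagTGTGGTaacagtgtcatt
Gzmf: ataggatgtcagTGTGGTgattgtgtcatt
Gzmd: ataggatgtcagTGTGGTgatagtgtcatt
Prf1: tgggaacctgtgACCACActctgggggcag
The Gzmc, Gzmd and Gzmf windows differ at few bases, as do those of the neighbours Gzme and Gzmg. They do not count as separate occurrences, so the share of 90% counts related copies more than once. A match is a description of letters and not of binding.

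Other cytotoxic genes were found on both sides. Of 13 granule and death ligand genes, 8 were higher in CD8 and 3 in CD4 (median 1.25). Nkg7, a granule membrane protein, stood at 566, 474 and 539 CPM in CD8 and 209, 215 and 226 in CD4 libraries (1.28 ± 0.11, adjusted p = 2.94e-08), and Ctsw, a cathepsin of killer cells, at 324, 367 and 283 and 77.3, 117 and 107. The protease inhibitor Serpinb9 (1.49 ± 0.26) and the death ligands Fasl (1.28 ± 0.19) and Tnfsf10 (1.25 ± 0.23) were also higher in CD8. The 3 genes on the other side were Ctsc (-2.96 ± 0.26), Lamp1 (-2.47 ± 0.26) and Srgn (-1.25 ± 0.14), which code for a granzyme-activating protease, a lysosomal membrane protein and a granule proteoglycan. Macrophages express those 3 genes too, and their part in the values was not tested. With the covariates 1 granzyme gene was called, and the granzyme median was 2.66.

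Eomes and Crtam were higher in CD8 cells, and the killer cell lectin-like receptors were divided. Eomes, a T-box factor of cytotoxic and memory cells, stood at 55.9, 65.2 and 54.4 CPM in CD8 and 1.68, 8.22 and 8.45 in CD4 libraries, and Crtam, a surface receptor of activated CD8 cells, at 90.8, 107 and 98.99 and 4.03, 9.45 and 11.2. Their differences were 3.27 ± 0.57 and 3.61 ± 0.41 (adjusted p = 0.000395 and 5.41e-06). Among 19 tested killer cell lectin-like receptors, 7 were higher in CD8 and 5 in CD4. The CD8 side held the NKG2 family, with Klrc1 at 314, 487 and 318 CPM against 28.9, 93.8 and 74.3, its partner Klrd1 at 2.19 ± 0.35, Klre1 at 2.47 ± 0.39 and the activating receptor Klrk1 at 1.75 ± 0.30. The CD4 side held Klrg1, a receptor also found on differentiated regulatory T cells, with 5.41, 7.53 and 5.51 and 177, 137 and 97.1 CPM (-4.45 ± 0.26, adjusted p = 5.72e-10) and Klrb1b (-2.83 ± 0.41). Klrg1 thus had the largest difference of the list, in favor of the CD4 cells. The count of 5 on the CD4 side became 3 without CD8 replicate 2, CD8 replicate 3 or CD4 replicate 1.

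Ifng and 5 chemokine genes were higher in CD8 cells, whereas most chemokine genes and more of the T cell cytokines were higher in CD4. Ifng, which encodes interferon gamma, stood at 635, 901 and 719 CPM in CD8 and 96.4, 204 and 172 in CD4 libraries (2.26 ± 0.43, adjusted p = 0.000925), a difference in the direction of Prf1 and with the lowest value again in CD4 replicate 1. Xcl1, a ligand that attracts cross-presenting dendritic cells, was at 98.6, 217 and 195 and 16.6, 28.2 and 26.6 CPM. Ccl3, Ccl4 and Ccl5, inflammatory chemokines, were higher in CD8 by 1.57 ± 0.24, 1.12 ± 0.18 and 1.56 ± 0.16. Those were 4 of the 5 among 20 chemokine genes that were higher in CD8. The other 15 were all higher in CD4 (median of the list -4.85), led in adjusted p by Cxcl10 (7.97, 9.58 and 10.5 against 174, 149.9 and 123 CPM, -4.00 ± 0.29), a ligand of Cxcr3, and by Ccl6 (42.98, 30.1 and 36.3 against 2111, 1395 and 3813). Cxcl9, another Cxcr3 ligand, was at 13.1, 9.29 and 7.82 and 276, 245 and 228 CPM. The macrophage sums are higher in those same 3 libraries, and with the covariates 1 chemokine gene was called on each side. Among 20 tested T cell cytokines, 2 were higher in CD8, Ifng and the OX40 ligand Tnfsf4 (2.49 ± 0.62), and 9 in CD4, which became 5 without CD8 replicate 1, CD8 replicate 3 or CD4 replicate 2.

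Cell cycle genes were higher in CD8 cells almost without exception. All 28 tested genes of G2 and mitosis were called higher in CD8 (median 1.39), as were 26 of 27 genes of G1 to S (median 1.18), where 18.9% of all tested genes were. Cenpf, a kinetochore protein, stood at 209.8, 221 and 226 CPM in CD8 and 43.5, 73.98 and 33.04 in CD4 libraries (2.11 ± 0.22, adjusted p = 3.87e-07), and Mki67, the gene of the proliferation marker Ki-67, at 1598, 1229 and 1162 and 303, 575 and 288 (1.77 ± 0.20). Pole, the catalytic subunit of a replicative polymerase, was at 239, 219 and 220.2 and 41.99, 74.7 and 50.4 CPM (2.01 ± 0.17), and Rrm2, a subunit of ribonucleotide reductase, at 206, 173 and 192 and 47.2, 64.9 and 52.4 (1.79 ± 0.14). In all 4 genes the groups were apart, and CD4 replicate 2 was the highest of the CD4 libraries. The helicase genes Mcm3 (1.18 ± 0.12) and Mcm7 (1.39 ± 0.14) and the checkpoint kinase Bub1 (1.58 ± 0.15) differed by the amounts given. Only Cdt1 of the G1 to S list did not pass (0.43 ± 0.17, adjusted p = 0.0585). All 28 mitotic genes remained called without any 1 of the 6 libraries, and with the covariates 1 mitotic and 2 G1 to S genes did, with medians of 1.2 and 1.05.

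The mitotic promoters carry the letters TTTGAA, the cell cycle genes homology region (CHR) at which repressor complexes hold mitotic genes silent outside of division. Of the 24 mitotic genes with a promoter in the RefSeq table, 18 (75%) held it on either strand, against 1472 of 10103 (14.6%) of all tested genes and 2 of 21 (9.52%) G1 to S genes. CCAAT, the NF-Y element, was in 79.2% of the mitotic, 71.4% of the G1 to S and 43% of all promoters. The last letters of the CHR motif can overlap the first of the IRF motif below. Windows of 30 bases follow for Cenpf (chr1:189688067-189688096), Mki67 (chr7:135716460-135716489), Cdk1 (chr10:69352910-69352939), Plk1 (chr7:122159453-122159482) and Ccnb2 (chr9:70421533-70421562), on the minus strand except Plk1, with the CHR letters in capitals.
Cenpf: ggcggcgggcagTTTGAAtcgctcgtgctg
Mki67: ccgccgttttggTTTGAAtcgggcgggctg
Cdk1: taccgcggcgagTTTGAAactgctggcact
Plk1: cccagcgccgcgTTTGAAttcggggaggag
Ccnb2: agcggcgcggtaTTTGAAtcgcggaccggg
Cdk1, the mitotic kinase (1.31 ± 0.20), Plk1, a kinase of mitotic entry (1.88 ± 0.29), and Ccnb2, a B-type cyclin (1.42 ± 0.18), are shown for these windows and not for their values.

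CD4 cells carried the regulatory T cell program. Of 22 tested regulatory T cell genes, 15 were higher in CD4 and none in CD8 (median -2.03). Foxp3, the factor that defines the subset (chromosome X, 7579676 to 7595243), stood at 1.28, 0.685 and 0 CPM in CD8 and 62.5, 52.7 and 32.3 in CD4 libraries (-6.12 ± 0.62, adjusted p = 1.25e-06). Il10, a suppressive cytokine, was at 3.84, 2.84 and 4.62 and 221, 192 and 135 CPM (-5.64 ± 0.36), and Itgb8 and Lrrc32, both of which help to activate the cytokine TGF-beta, at 82.1, 74.9 and 34.3 and 21.2, 23.8 and 15.6 CPM in CD4 libraries against at most 2.54 and 0.285 in CD8. Ctla4, an inhibitory receptor at high level on regulatory cells, stood at 295, 324 and 244 and 1448, 1087 and 798 CPM (-1.95 ± 0.18, adjusted p = 6.8e-08). Areg, a growth factor of tissue regulatory cells (-3.44 ± 0.36), and the receptor Izumo1r (-4.25 ± 0.34) went the same way. For each of those genes no CD8 library reached a CD4 library. Il2ra, the interleukin 2 receptor chain that marks the subset, did not follow: it was at 164, 48.9 and 41.6 and 101, 81.2 and 51.4 CPM (0.12 ± 0.43, adjusted p = 0.858). Its CD8 values were set apart by replicate 1, and without that library Il2ra was called higher in CD4 (-0.78, adjusted p = 0.0349). Itgae, placed in the CD8 lineage list as the CD103 integrin chain, was higher in CD4 (7.97, 10.9 and 5.86 against 141, 130.0 and 72.04 CPM, -3.77 ± 0.45), and tumor regulatory T cells are known to express it. With the covariates 9 regulatory genes were still called higher in CD4 (median -2.85).

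Helper genes of other kinds were also on the CD4 side. Of the Th2 list 6 of 8 tested genes were higher in CD4 and none in CD8, of Th17 genes 5 of 7 and 1, and of follicular helper genes 6 of 10 and 1, the last becoming 0 without CD8 replicate 2 or 3 or CD4 replicate 2 or 3. Ccr4, a receptor of Th2 and regulatory cells, stood at 0.142, 0.0978 and 0.533 CPM in CD8 and 19.5, 21.9 and 14.2 in CD4 libraries (-6.28 ± 0.54), and Ccr8, which marks tumor regulatory cells, at 15.5, 30.02 and 13.2 and 114, 97.5 and 91.2. Il5, a Th2 cytokine, had no count in the CD8 libraries, against 2.69, 4.66 and 3.97 CPM in CD4 (at least 27.9-fold higher, taking a floor of 3 counts over the CD8 group). Maf, a factor of follicular helper, Th17 and interleukin 10 producing cells, had the smallest adjusted p of all genes called in the same direction in the floxed, deficient and treated sets, with 8.11, 8.21 and 5.15 CPM in CD8 and 401, 329 and 369 in CD4 libraries (-5.65 ± 0.20, adjusted p = 8.55e-14). The Maf libraries were far apart, and macrophages also express the gene. Cd40lg, the ligand through which helper cells license B cells and dendritic cells, was at 1.14, 0.196 and 2.13 and 13.1, 8.49 and 7.70 CPM (-3.20 ± 0.66). Th1 genes went the other way, with 9 of 14 higher in CD8 and 4 in CD4: Il18rap (2.18 ± 0.25), Il18r1 (1.41 ± 0.14) and Cxcr6 (1.16 ± 0.18) were among the former, and Cxcr3 (-1.55 ± 0.24) was among the latter. Tbx21, the Th1 and effector factor, was at 179, 165 and 124 and 79.3, 83.6 and 43.2 CPM (1.18 ± 0.22, adjusted p = 0.000255).

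Inhibitory receptors divided between the lineages, 6 of 16 higher in CD8 and 8 in CD4 (median -0.13), while costimulatory receptors leaned to CD4 with 9 of 14 against 1. Pdcd1, the gene of PD-1, stood at 789.7, 931 and 713 CPM in CD8 and 296, 312 and 247 in CD4 libraries (1.51 ± 0.15, adjusted p = 9.24e-08), and Havcr2, the gene of TIM-3, at 518, 629.7 and 467 and 132, 184 and 151 (1.79 ± 0.27). Cd160 (2.44 ± 0.39), Cd244a (1.48 ± 0.21) and Cd96 (1.30 ± 0.16) were on the same side. Lag3 was at 262, 134 and 111 and 65.01, 82.5 and 53.9 CPM (1.33 ± 0.29), highest in CD8 replicate 1. On the CD4 side, beside Ctla4, stood Lair1, a collagen receptor also of myeloid cells (17.8, 14.2 and 15.8 against 183, 182 and 207 CPM, -3.58 ± 0.19), the ectoenzyme gene Nt5e (-1.90 ± 0.22) and Vsir, the gene of VISTA (-1.54 ± 0.13), which macrophages express too. Of costimulatory genes, Icos stood at 149.6, 109.6 and 100.1 and 621, 504 and 318 CPM (-2.01 ± 0.21) and Tnfrsf4, the gene of OX40, at 64.3, 112 and 101 and 568, 359 and 274 (-2.11 ± 0.25), with CD4 replicate 1 the highest of both. Tnfrsf25 (-3.59 ± 0.33) and Tnfrsf18, the gene of GITR (-1.39 ± 0.18), followed, and Cd27 was the 1 costimulatory gene higher in CD8 (0.60 ± 0.20, adjusted p = 0.0215). That call was lost without CD8 replicate 2 (adjusted p = 0.0785) or CD4 replicate 3 (0.102). Without CD8 replicate 1, 2 costimulatory genes were called in CD8.

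Transcription factors of effector and exhausted cells were mixed, with 9 of 19 higher in CD8 and 4 in CD4. Tox, a factor of exhausted CD8 cells, stood at 156, 96.1 and 67.7 CPM in CD8 and 30.1, 37.5 and 23.8 in CD4 libraries (1.80 ± 0.27, adjusted p = 2.69e-05), and the stimulation-induced Nr4a2 at 224, 152 and 113 and 14.4, 44.4 and 26.6 (2.50 ± 0.48). Zeb2 (-1.94 ± 0.25) and Hif1a (-1.08 ± 0.14) were higher in CD4. With the macrophage and melanoma covariates the calls of Tox, Nr4a2 and Zeb2 were lost. Tcf7, the factor of stem-like and memory cells, gave 174, 49.8 and 35.01 and 85.2, 68.6 and 41.5 CPM (0.40 ± 0.48, adjusted p = 0.548), so the groups overlapped and CD8 replicate 1 alone was above the CD4 range. That library also held Cd3e at 465, 108 and 87.97 CPM across the CD8 replicates, against 51.9, 63.02 and 38.01 in CD4, and 400 genes in it were at least 2-fold above both other CD8 libraries (of 9531 at 10 CPM or more in 1 CD8 library), against 10 in replicate 2 and 254 in replicate 3. The T cell receptor signalling list (12 of 25 higher in CD8, 3 in CD4) and the naive and memory list (4 and 6 of 18) therefore changed with it: without CD8 replicate 1 their medians went from 0.56 to 0.26 and from 0.32 to -0.48, and the counts to 9 and 5, and 4 and 7. Among signalling genes whose groups did not overlap were Sh2d2a, an adaptor (675, 582 and 466 against 184, 236 and 165 CPM, 1.56 ± 0.14), and Themis (1.31 ± 0.17). Of 17 pan T cell genes 7 were higher in CD8 and 3 in CD4 (median 0.03, and 5 in CD4 without CD4 replicate 3, which also left 5 signalling genes on that side): Thy1 stood at 961, 888 and 699 and 330.4, 362 and 277 CPM (1.39 ± 0.15) and Cd5, which tunes receptor signals, at 143, 169 and 118 and 398, 385 and 241 (-1.25 ± 0.16).

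Type I interferon response genes were higher in the CD4 libraries in 27 of 28 cases, and none was higher in CD8 (median -1.92). Irf7, which amplifies the response, stood at 49.5, 56.2 and 54.7 CPM in CD8 and 344, 323 and 519 in CD4 libraries (-2.88 ± 0.21, adjusted p = 4.46e-09), and Ifit2, an inhibitor of viral translation, at 61.9, 75.3 and 67.5 and 292, 402 and 473 (-2.51 ± 0.21). Oasl1 was at 5.55, 6.65 and 13.7 and 86.7, 76.2 and 84.95 CPM (-3.29 ± 0.34), Rtp4 at -3.05 ± 0.26 and Bst2, which tethers virus particles, at -1.74 ± 0.20. The groups were apart for each of those. Macrophage markers are higher in the same libraries and rank CD4 replicate 3 first, as do 24 of the 28 genes, Irf7 and Ifit2 among them and Oasl1 not; what part they have in this list was not tested, beyond the fit with covariates, which left no member called and a median of -0.95. The receptor genes Ifnar1 (-0.65 ± 0.12) and Ifnar2 (-1.18 ± 0.19) were higher in CD4 as well. MHC class I and antigen processing genes, which interferons raise, were higher in CD4 in 9 of 20 cases and in CD8 in none (median -0.29), where 1 became called in CD8 without CD8 replicate 3, with B2m at -1.27 ± 0.15.

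Promoters of the interferon list carry AANNGAAA, the core that interferon regulatory factors (IRF) bind, where N is any base. It was found on either strand in 17 of 21 list members with a promoter in the RefSeq table (81%), against 2200 of 10103 tested genes (21.8%) and 3 of 24 mitotic genes (12.5%). Windows of 30 bases are given for Bst2 (chr8:71537576-71537605), Trim30a (chr7:104465211-104465240), Ifit1 (chr19:34640793-34640822), Oas1a (chr5:120907519-120907548) and Rsad2 (chr12:26456540-26456569), on the minus strand except Ifit1, with the motif in capitals (TTTCNNTT is its other strand).
Bst2: caggaaaatgaAACTGAAAggctgcagttt
Trim30a: tagttctttagTTTCTTTTtctcagttcct
Ifit1: tccagtctcagTTTCAGTTtctcactgctg
Oas1a: cgggaaatggaAACTGAAAatctacttccc
Rsad2: cattttcagaaAACAGAAActctgtttaac
Ifit1 (-2.54 ± 0.27), Oas1a (-3.08 ± 0.36) and Rsad2 (-4.69 ± 0.47) are named for the motif or, in the case of Rsad2, because it had the largest difference of the list, and were chosen after their values were seen. Trim30a differed by -1.38 ± 0.16.

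**Figure D4:**
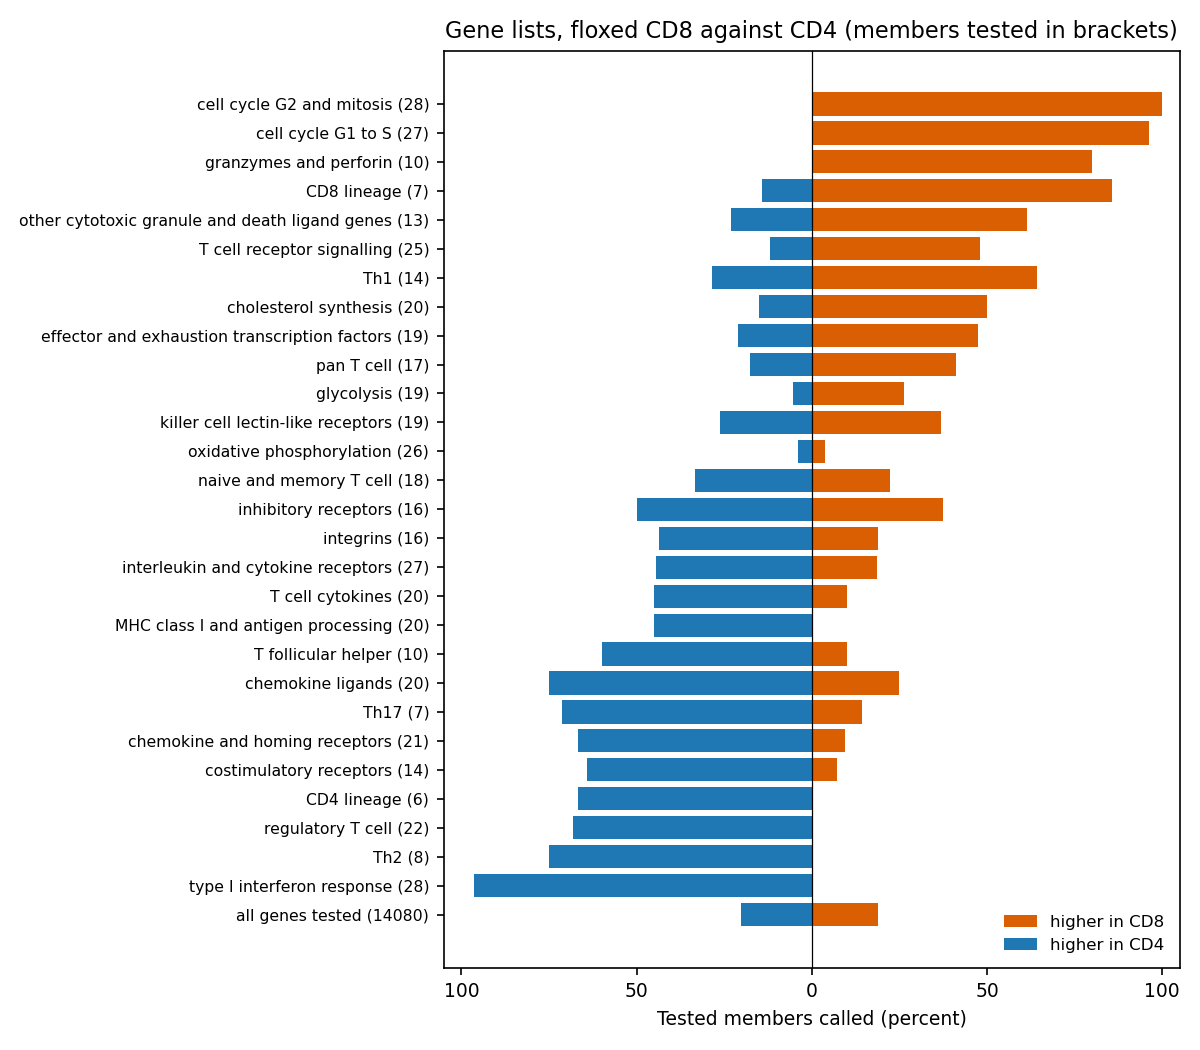
Share of tested members of each T cell gene list called higher in CD8 (orange, to the right) or in CD4 (blue, to the left), in percent of the members tested, whose number is given beside each name. The bottom bar shows all 14080 tested genes, with 18.9% and 20.2%, and the 2 cell cycle lists and the interferon list lie farthest from it.

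Adhesion and homing genes were mostly on the CD4 side, with 14 of 21 tested chemokine and homing receptors and 7 of 16 integrin genes higher in CD4, against 2 and 3 higher in CD8. Without CD8 replicate 1 the count of 3 integrins became 1. Ccr2, which draws cells and monocytes to inflamed tissue, stood at 136, 218 and 184 CPM in CD8 and 1976, 1763 and 2750.1 in CD4 libraries (-3.59 ± 0.26). Itgb7, a chain of gut-homing integrins, was at 169.9, 154 and 113 and 824, 761 and 505 CPM (-2.26 ± 0.17), and Cxcr4 differed by -1.61 ± 0.22. The CD8 side held Cx3cr1 (142, 164 and 205 against 27.4, 69.9 and 40.2 CPM, 1.88 ± 0.41) and Cxcr6. Among receptors for cytokines, 5 of 27 were higher in CD8 and 12 in CD4: Il7r, the interleukin 7 receptor chain, was at 146, 92.4 and 64.5 and 467, 339 and 198 CPM (-1.73 ± 0.32), Il4ra at -1.22 ± 0.15 and Tgfbr1 at -1.96 ± 0.17. Both Ccr2 and Tgfbr1 are also macrophage genes.

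Metabolic lists differed from one another in their counts. Of 26 oxidative phosphorylation genes, 1 was called on each side (median -0.06), and 0 to 2 on each side without any 1 library. Of 19 glycolysis genes, 5 were higher in CD8 and 1 in CD4 (median 0.09), led by the glucose transporter Slc2a3 (488, 487 and 381 against 137, 179.7 and 126 CPM, 1.61 ± 0.19) and the lactate carrier Slc16a1 (118, 138 and 207 against 49.9, 59.7 and 55.6, 1.48 ± 0.17). For both carriers the lowest CD8 library was above the highest CD4 library. Cholesterol synthesis genes were higher in CD8 in 10 of 20 cases and in CD4 in 3 (median 0.40), with Sqle, an early oxidase of the pathway, at 83.1, 72.5 and 77.3 and 44.9, 36.2 and 27.6 CPM (1.09 ± 0.15). The 1 glycolysis gene on the CD4 side became 2 without CD8 replicate 1 or 3 and 3 without CD4 replicate 3.

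Of the genes with the largest single differences, several were uneven over the libraries of the higher group. Highest in CD8 was Mycn, a MYC family factor, with 9.39, 12.4 and 54.4 CPM against no count in the CD4 libraries (at least 154-fold higher, with the floor of 3 counts over the CD4 group). It was followed by Zfhx4, a zinc finger factor (15.2, 23.5 and 101 against 0, 0.274 and 0), the betaine carrier Slc6a12 (10.4, 16.04 and 66.6 against 0.504, 0.274 and 0), the carbonic anhydrase gene Car2 (18.5, 39.3 and 227 against 1.85, 2.47 and 3.97) and Fat1, an atypical cadherin (5.98, 12.9 and 65.2 against 2.02, 1.10 and 0). In each of those 5 genes CD8 replicate 3 had the highest value by far. That library also had the highest macrophage marker sum of the CD8 libraries (2475 CPM against 1019 and 1136). Csf1r stood at 11.4%, 15.3% and 81.2% of the CD4 mean in CD8 replicates 1 to 3, and Lyz2 at 3.08%, 3.48% and 13.2%. Not every macrophage marker was highest in replicate 3: C1qa stood at 1.69%, 1.51% and 0.933% of the CD4 mean in CD8 replicates 1 to 3. The part of other cells in the values of the 5 genes was not tested. By limma voom the calls of Mycn (adjusted p = 0.0648), Zfhx4 (0.0927), Car2 (0.106) and Fat1 (0.109) were lost, and with CD4 replicate 1 alone in its group those of Mycn (0.0863) and Fat1 (0.101). Rgs8, a regulator of G protein signals (169, 93.6 and 86.01 against 0, 13.02 and 8.69, 3.98 ± 0.78), and the anion transporter gene Slco4a1 (90.1, 64.5 and 132 against 6.55, 11.4 and 3.97, 3.65 ± 0.54) were more even over the CD8 libraries. Beside Cd4 and Lrrc32, the largest differences towards CD4 included those of Ednrb, an endothelin receptor (0.427, 0.489 and 0.178 against 37.5, 67.5 and 244 CPM), Ms4a8a (0.427, 0.293 and 0 against 57.95, 34.8 and 97.9), the iron exporter Slc40a1 (0, 0.293 and 0 against 32.9, 30.8 and 34.8), the folate receptor Folr2 (0.854, 0.685 and 0.355 against 95.2, 66.04 and 177) and Retnla, a product of alternatively activated macrophages (0.142, 1.08 and 12.3 against 197, 218 and 1065). Slc40a1, Folr2 and Retnla are known from macrophages, and Ednrb, Folr2 and Retnla were highest in CD4 replicate 3, as was the macrophage marker sum. The part of macrophage RNA in these values was not tested.

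A part of the lineage difference was shared with cells that lacked miR-155. In the deficient set 874 genes (6.21%) were called higher in CD8 and 1322 (9.39%) higher in CD4, and in the treated set 1318 (9.36%) and 1552 (11%), together 20.4%. Of the genes called higher in CD8 in floxed cells, 658 were also called so in deficient cells, which is 24.7% of the floxed and 75.3% of the deficient list, and for CD4 the count was 942 (33.1% and 71.3%). In opposite directions 20 and 16 genes were called. In all 3 sets 425 genes were higher in CD8 and 663 higher in CD4. The shared CD8 genes of smallest adjusted p included Bend4 (166, 112 and 115 against 12.1, 22.1 and 16.9 CPM, 2.94 ± 0.22 in floxed and 3.36 in deficient cells), the purine synthesis gene Pfas (1.82 ± 0.17 and 1.16) and the methyltransferase gene Prmt5 (1.60 ± 0.13 and 0.99). The shared CD4 genes included, beside Maf, the lipid droplet gene Plin2 (42.8, 39.4 and 44.3 against 544, 457 and 542 CPM, -3.61 ± 0.15 and -1.05), the cathepsin gene Ctsb (-3.08 ± 0.18 and -1.16) and Sgms1, an enzyme of sphingomyelin synthesis (-2.32 ± 0.13 and -1.46). Plin2 and Ctsb are also known from macrophages or their lysosomes. Mean macrophage marker sums in CD8 and CD4 libraries were 1543 and 19680 CPM in floxed, 2831 and 4696 in deficient and 1362 and 4346 in treated sets. The part of macrophage RNA in the shared genes was not tested.

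Whether the lineage difference itself differed from that in deficient cells was tested with the interaction of lineage and deletion, which called 1634 genes (11.6%). In 664 (4.72%) the difference was farther towards CD8 in floxed cells and in 970 (6.89%) farther towards CD4. Of the G2 and mitosis list 23 of 28 were among them, of the G1 to S list 18 of 27, of the interferon list 19 of 28 and of the chemokine ligands 15 of 20. Their medians in deficient cells were 0.26, 0.40, -0.45 and -1.32, against 1.39, 1.18, -1.92 and -4.85 in floxed cells. For the regulatory T cell list the deficient median was the larger, at -3.25 with 19 members higher in CD4, and 5 of 22 were called in the interaction. For granzymes and perforin it was 3.02 with 2 of 10 called. Gzmb was 1 of those: it stood at 465, 1111 and 680.5 CPM in deficient CD8 and 679, 1009 and 836 in deficient CD4 libraries (-0.16), so that the 2 groups overlapped there, and the change of the difference was 1.74 ± 0.35 (adjusted p = 0.00384). Pdcd1 was at 250.1, 277 and 232 and 261, 231 and 277 CPM in deficient libraries (-0.02), with a change of 1.52 ± 0.20 (adjusted p = 9.35e-05). The macrophage marker sum was 4696 CPM in deficient CD4 and 2831 in deficient CD8 libraries on average, so its gap between lineages was smaller there as well. Melanoma marker sums were 1566 to 3540 CPM in deficient CD8 and 2070 to 4858 in deficient CD4 libraries, above all 6 floxed libraries. The part of either in the interaction was not tested. With the covariates 102 genes were called in the interaction.

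**Figure D5:**
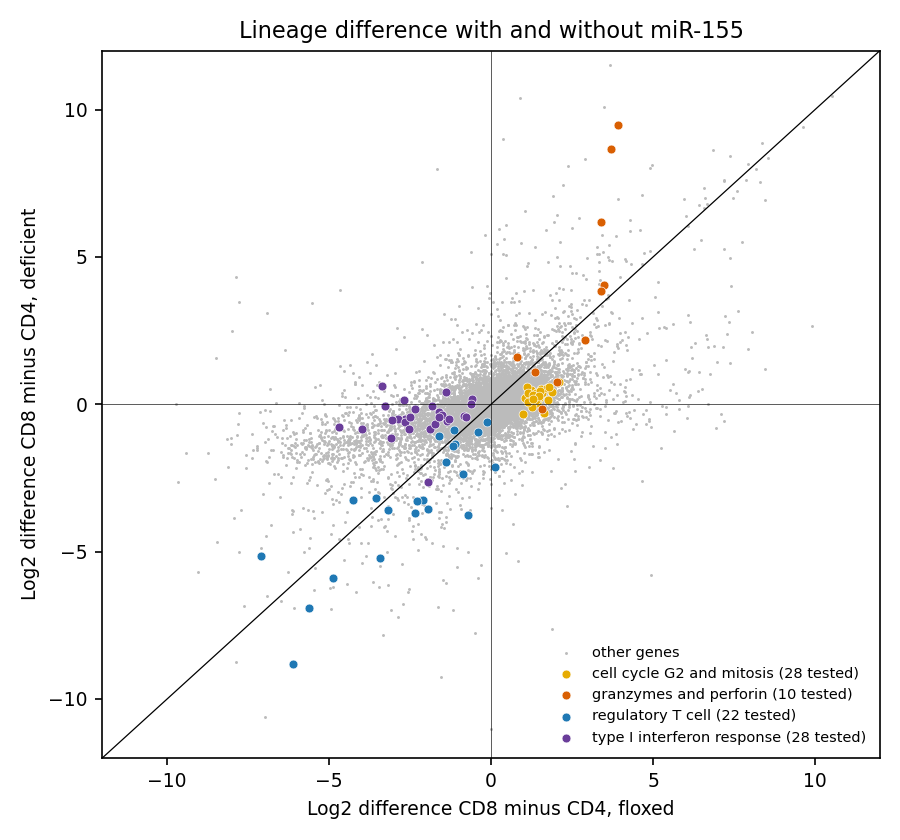
Log2 difference between CD8 and CD4 cells in deficient mice (y axis) against that in floxed mice (x axis) for the 14080 tested genes, with members of 4 lists colored and the diagonal of equal differences drawn. Mitotic and interferon genes lie nearer to 0 on the y axis than on the x axis, with medians of 0.26 and -0.45 against 1.39 and -1.92.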

How the data were processed

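RNA of sorted tumor T cells was sequenced in 18 mouse libraries of 6 groups with 3 each. The deposited values were whole-number counts per gene, made with featureCounts 1.5.1 (strand option 2, annotation of Ensembl release 87), per the file headers. STAR, featureCounts, DESeq2 and the build GRCm38 are named in the submitters' processing notes. How much of the spread between libraries is biological is known only as far as each pools 2 to 3 tumors.

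From these counts edgeR 4.0.16 in R 4.3.3 was run on all 18 libraries with 1 mean per group (filterByExpr, minimum count 10, TMM scaling, robust quasi-likelihood F test, Benjamini-Hochberg adjustment over 14080 genes, threshold 0.05). Standard errors are the absolute log2 difference divided by the square root of F. DESeq2 1.42.0 and limma 3.58.1 (voom), other scalings and filters, the 6 floxed libraries alone, a replicate block, covariates and leaving out each library were tried as alternatives. The main fit, DESeq2, voom, the replicate block and the 6 floxed libraries alone were run on simulated counts, scored for the floxed contrast only. The other alternatives and the interaction were not scored on simulated counts.

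The comparison, gene lists and tests were chosen with earlier results of these data known. Genes were named by a rule: 6 fixed lineage genes, the 12 largest differences in each direction among called, non-overlapping genes at 20 CPM or more, the 10 smallest adjusted p in each direction among genes called alike in all 3 sets, up to 6 called members of each list in each direction, and 14 effector and regulatory genes whatever their result. Receptor segments and unnamed models were left out of the largest differences. Gzma, Gzmg, Cdt1, Ifit1, Oas1a, Rsad2, Cdk1, Plk1, Ccnb2 and the marker genes were named outside of it, after their values were seen. Promoters and the microRNA came from RefSeq. A longer motif of the interferon-stimulated response element was searched first, and the IRF core was taken in its place after that result was seen. A few genes that this rule names are not reported here.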

Additional observations from a re-analysis of the deposited data

Results flagged for a closer look

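The lineage difference differed between floxed and deficient cells in 1634 genes, by the test of the interaction itself (adjusted p under 0.05, edgeR). For those named above, the change of the difference is given in brackets (log2, floxed minus deficient, 3 libraries in each of the 4 groups), positive where the difference was farther towards CD8 in floxed cells. A call in the interaction gives no direction in either set alone.

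Farther towards CD8 in floxed cells were the cell cycle genes Mki67 (1.63), Cenpf (1.34), Bub1 (1.18), Ccnb2 (1.39), Cdk1 (1.18), Plk1 (1.47), Rrm2 (1.32), Pole (1.05), Mcm3 (0.78) and Mcm7 (0.78). Of inhibitory and costimulatory receptors the values were Pdcd1 (1.52), Havcr2 (1.59), Lag3 (1.94), Ctla4 (1.60), Icos (1.59) and Tnfrsf4 (1.12). Among effector genes they were Gzmb (1.74), Gzmk (1.27), Fasl (1.27), Ccl4 (1.05) and Ccl5 (0.95), and among receptors of cytokines and chemokines and the receptor gene Klrg1, Il2ra (2.26), Il18r1 (1.01), Il18rap (1.24), Cxcr6 (1.46), Ccr8 (1.36) and Klrg1 (1.65). Of those, Ctla4, Icos, Tnfrsf4, Ccr8 and Klrg1 were, like Hif1a, higher in CD4 in floxed cells, so a positive value there is a smaller lead of the CD4 cells. Further genes on this side were the regulators and signalling genes Tbx21 (1.05), Hif1a (0.71), Sh2d2a (1.19), Themis (0.85) and Thy1 (0.95), and Slc2a3 (1.45), Sqle (1.42) and Prmt5 (0.61) of metabolism and arginine methylation.

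Farther towards CD4 in floxed cells were the interferon response genes Irf7 (-2.40), Ifit1 (-1.69), Ifit2 (-2.06), Oas1a (-1.92), Oasl1 (-3.24), Rsad2 (-3.91), Rtp4 (-2.52), Bst2 (-1.07) and Trim30a (-0.80) and the chemokines Cxcl9 (-2.81), Cxcl10 (-2.35) and Ccl6 (-4.75). Genes known from macrophages or their lysosomes had the values Lyz2 (-2.96), Ctsb (-1.92), Ctsc (-2.11), Lamp1 (-2.16), Plin2 (-2.56), Lair1 (-1.90), Vsir (-0.95), Folr2 (-6.40) and Slc40a1 (-7.15). The genes of large difference Ednrb (-6.96) and Ms4a8a (-6.78) changed as well. Receptor and integrin genes on this side were Ifnar1 (-0.59), Ifnar2 (-1.21), Il4ra (-1.29), Il7r (-1.45), Tgfbr1 (-1.18), Cxcr4 (-1.41) and Itgb7 (-1.03), and others were Maf (-2.06), Zeb2 (-1.57), Nt5e (-1.11), Tnfrsf25 (-1.63) and Sgms1 (-0.85). Macrophage marker sums had the larger gap between lineages in the floxed set, as given above, and their part in these values was not tested.

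Negative values also arose for 2 genes of the CD8 side, Cd160 (-2.26) and Cd8a (-7.84), whose lead in CD8 cells was larger in the deficient set. Cd8a stood at 690, 726 and 623 CPM in the deficient CD8 and at 0.259, 0.136 and 0.282 in the deficient CD4 libraries, against up to 149 in floxed CD4 libraries. The other co-receptor chain, Cd8b1, was not called in the interaction (-1.78, adjusted p = 0.143, edgeR). It stood at 17.4, 8.15 and 6.77 CPM in the deficient CD4 libraries.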

How the results depend on the processing

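The 2662 genes called for CD8 and 2844 for CD4 became 2826 and 2998 by DESeq2, 2532 and 2840 by voom, 2663 and 2860 with size factors of DESeq2's kind, 3015 and 2619 with upper quartile scaling and 2856 and 2647 without a filter. The 6 floxed libraries alone gave 1474 and 1982, so that 42.7% of calls were on the CD8 side, against 48.3%. With the macrophage and melanoma levels as covariates, 203 were higher in CD8 and 321 higher in CD4, which are also the counts at 2-fold or more, and the interaction called 102. Without any 1 floxed library the counts ran from 2159 to 2584 (CD8), 2562 to 2751 (CD4), 1058 to 1379 and 1600 to 1786 (2-fold or more), and 1211 to 1868 (interaction). Of 128 named genes called in the main fit, 43 kept direction and call under the covariates. The call was lost for 78, among them Cd8a, Cd8b1, Prf1, Gzmb, Ifng, Eomes, Pdcd1, Mki67, Ccr2 and Irf7. Under the covariates the sign turned for Cd27 (-0.18), Cd3e (-1.10), Lag3 (-0.17), Tbx21 (-0.25), Lamp1 (0.10), Lyz2 (1.46) and Retnla (0.37), none of them called there, and for the medians of the Th1 (-0.09), effector transcription factor (-0.25), receptor signalling (-0.65) and lectin-like receptor (-0.05) lists. The last was also negative without a filter (-0.07), by DESeq2 (-0.12) and without CD8 replicate 1 (-0.26), 2 (-0.15) or 3 (-0.04) or CD4 replicate 2 (-0.18), and ran up to 0.54 without CD4 replicate 3. Il2ra ran from -0.78 without CD8 replicate 1 to 0.43 without CD8 replicate 3. The causes were not tested.

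The replicate numbers were not taken as pairs: same-numbered floxed CD8 and CD4 libraries had correlations of deviations of 0.00349, 0.0281 and 0.0876, and not every floxed library correlated best with its own number. Deficient libraries of one number gave 0.164, 0.0934 and 0.134 (at most -0.027 for unlike numbers), and treated ones gave 0.105, 0.103 and 0.289 (at most 0.0482). With the replicate block 2618 and 2868 genes were called, 1144 and 1735 at 2-fold or more, and 1879 in the interaction, and with the block on the 6 floxed libraries alone 1447 and 2003.

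At the lowest total of 4465333 counts, a gene under 0.672 CPM has fewer than 3 counts, so absence of the rarest transcripts could not be shown.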
